A study of Mus musculus with 8 samples.

Results

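The genes described here are 10 that mark macrophages and microglia, chosen by name: *Csf1r*, *Cx3cr1*, *C1qa*, *C1qb*, *C1qc*, *Fcgr1*, *Mrc1*, *Trem2*, *P2ry12* and *Timd4*. All 10 were found by symbol among the 28014 genes of a table of counts in 15168 single cells. They were read across the 10 cell clusters that the authors named, across 8 libraries, and within the 2397 cells of the cluster called Myeloid. Cells were sorted for the endothelial surface protein CD31 from the aorta-gonad-mesonephros region (AGM) of C57BL/6 mouse embryos at E10.5, where the first blood stem cell precursors leave the wall of the aorta. Each library held 2 to 5 pooled embryos, of which 5 were WT and 3 carried Meis1-flox/VE-Cre, with the genotype label Meis1-knockout and the name Mff_Cre in the table. In these embryos Cre is driven by the promoter of VE-cadherin (*Cdh5*), so that floxed *Meis1* can be deleted in endothelium and in what descends from it. For its knockout experiments the study uses the name WT for littermates without Cre. It does not say whether the embryos of the 5 WT libraries were such littermates, and no library holds Cre with an intact *Meis1*.

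Macrophages are the phagocytes that seed every organ of the embryo, and those of the brain are the microglia. The earliest ones descend from yolk sac progenitors, circulate or migrate to the tissues, and depend on signals through the receptor encoded by *Csf1r*. In this region they sit around the aorta beside the emerging blood cells, and they take up dying cells, tag targets with complement and respond to antibody-coated particles.

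The libraries differed in depth in a way that follows genotype. Total unique molecular identifiers (UMIs, counted RNA molecules) ran from 20484881 to 79429129 per library, and median UMIs per cell were above 20000 in WT 1 to WT 4 and below it in WT 5 and in the 3 Mff_Cre libraries. Depth and genotype therefore coincide except in WT 5. Levels are given as CPM, the UMIs of a gene in the summed cells scaled to a common total of UMIs. Reads start at the 3' end of each RNA, so CPM was not divided by gene length when genes are compared. Of 15135 distinct cell barcodes, 33 occurred in more than 1 library. *Meis1* itself, in progenitors of the EMP cluster (erythro-myeloid progenitors), was at 56.7 to 77.0 CPM in WT and 20.9 to 36.4 in Mff_Cre libraries, and in Myeloid cells at 12.7 to 27.6 and 7.78 to 13.2 CPM. In arterial endothelium (aEC) the ranges overlapped, at 0.881 to 1.48 and 1.17 to 2.15 CPM. These levels rest on 1 to 10 UMIs per WT and 2 to 5 per Mff_Cre library. A 3' count also need not cover the deleted exon. Checked against its label, the Myeloid cluster had the leukocyte gene *Ptprc* at 124 to 230 CPM and the myeloid transcription factor gene *Spi1* at 291 to 435 CPM over the 8 libraries.

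All 10 genes were highest in Myeloid cells, by mean CPM and by share of cells with a UMI. *C1qb* led with 749 ± 216 CPM (SD, n = 8 libraries), followed by *C1qc* at 472 ± 167, *Cx3cr1* at 420 ± 55.5, *C1qa* at 282 ± 108 and *Csf1r* at 173 ± 35.9 CPM. *Mrc1*, *Fcgr1* and *Trem2* lay near one another, at 127, 100 and 95.4 CPM, and *P2ry12* at 26.3 and *Timd4* at 4.93 CPM were the lowest. Clusters were drawn by the authors on these same RNA counts, so their order is a description with no test. In every library 9 of the 10 genes were higher in Myeloid cells than in each of the other 9 clusters. The exception was *Timd4*, for which 1 UMI in 33 pre-hemogenic endothelial cells (pre-HE) of Mff_Cre 2 gave 4.79 CPM, above the 4.3 CPM of its Myeloid cells.

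**Figure D1:**
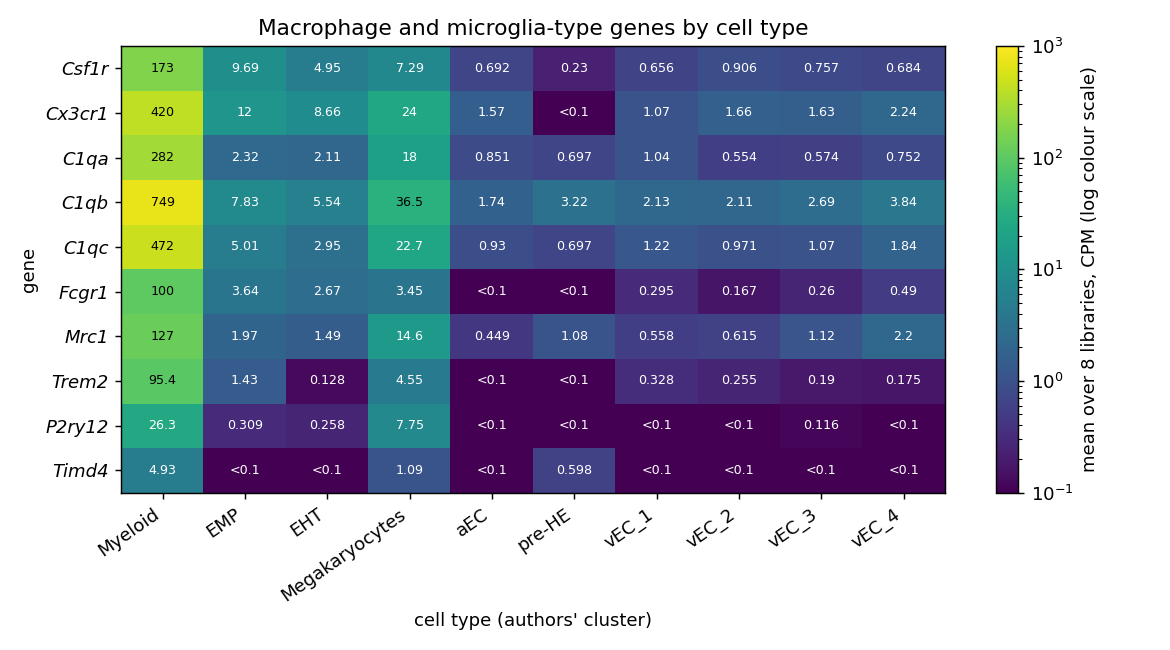
Mean CPM over 8 libraries (colour, log scale, with the value printed in each cell; values below 0.1 are shown as <0.1) of the 10 genes (rows) in the 10 clusters (columns). The Myeloid column holds the highest value of every row, from 749 CPM for *C1qb* to 4.93 CPM for *Timd4*, and the Megakaryocytes, EMP and EHT columns stand next.

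Among the receptors for outside signals, *Csf1r*, the receptor for the growth factors CSF1 and IL34, was found in the largest share of EMP cells after thinning, 5.49% beside 4.03% for *Cx3cr1* (each cell reduced to 5000 UMIs, as described with that gene). In Myeloid cells its level was 222, 215, 155, 158 and 125 CPM in WT 1 to WT 5 beside 160, 207 and 147 CPM in Mff_Cre 1 to 3. In EMP cells it was 14.9, 7.92, 4.36, 3.55 and 12.6 CPM in WT and 12.7, 13.8 and 7.75 CPM in Mff_Cre libraries, so that no EMP library came near a Myeloid one. Over pooled cells the Myeloid level was 20.6 times that of EMP cells and 40.6 times that of EHT cells, those passing from endothelium to blood. The ranges of EMP, Megakaryocytes and EHT overlapped one another, and those of EHT and of the next cluster, vEC_2 (venous endothelium), did not.

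*Csf1r*, *Cx3cr1* and *Fcgr1* made up more of the small signal in progenitors than of the large one in Myeloid cells. *Csf1r* held 22.3% of the 967 UMIs of the 10 genes in EMP cells (95% Clopper-Pearson interval 19.7 to 25.1%) and 17.4% of 298 in EHT cells (13.3 to 22.2%), beside 6.88% of 200789 in Myeloid cells (6.77 to 6.99%). *Cx3cr1* held 26.8, 27.9 and 16.3% in the same clusters and *Fcgr1* 8.69, 9.40 and 3.99%. Such intervals cover counting error only. Of 131 EMP cells with a *Csf1r* UMI, 70 (53.4%) held another of the 10 genes, compared with 191 of 616 (31.0%) EMP cells without one. These cells were not thinned, and median UMIs per EMP cell ran from 14516 in Mff_Cre 2 to 53132 in WT 4. Deeper cells can show both genes more often, and the part of depth was not tested.

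*Cx3cr1*, the receptor for the chemokine fractalkine, was the most even of the 10 genes across libraries. Its Myeloid level was 517, 478, 397, 378 and 392 CPM in WT 1 to WT 5 and 350, 445 and 404 CPM in Mff_Cre 1 to 3. *Cx3cr1* also had the largest share of cells with a UMI. To compare such shares at equal depth, 5000 UMIs were drawn at random from every cell (thinning), which left out 5 of 2397 Myeloid cells (1 of WT 5 and 4 of Mff_Cre 2). On that footing *Cx3cr1* was found in 73.5 ± 9.43% of Myeloid cells (SD, n = 8), and in 92.6% of all Myeloid cells without thinning. *C1qb* was found in 68.9%, *C1qc* in 61.0%, *Csf1r* in 55.3% and *C1qa* in 47.8% of thinned Myeloid cells. *Fcgr1*, *Trem2*, *Mrc1*, *P2ry12* and *Timd4* followed at 37.4, 35.4, 24.0, 14.0 and 2.36%.

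In aEC, which should lack these genes, the shares at the same depth ran from 0 to 1.06%, the highest being *C1qb*, and free RNA can give such counts. Median UMIs per cell before thinning were 25445 in Myeloid and 11658.5 in aEC cells. A share of 0 of 1500 aEC cells, as for *Trem2*, *Fcgr1*, *P2ry12* and *Timd4*, allows a share of up to 0.2% of cells with a UMI. Outside the Myeloid cluster the highest shares were 5.60% for *P2ry12* in Megakaryocytes and 5.49% for *Csf1r* in EMP cells.

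The complement genes *C1qa*, *C1qb* and *C1qc* encode the 3 chains of C1q, the molecule that starts the classical complement cascade, and they lie side by side within 18.718 kb of chromosome 4 (RefSeq, GRCm38.p6, the assembly of mm10). *C1qb* was at 987, 1035, 529, 689 and 449 CPM in Myeloid cells of WT 1 to WT 5 and at 738, 933 and 636 CPM in Mff_Cre 1 to 3. *C1qc* was at 711, 703, 308, 417 and 258 CPM in the WT and 435, 534 and 414 CPM in the Mff_Cre libraries. *C1qa* ran from 137 CPM in WT 5 to 442 CPM in WT 1. All 3 chains were lowest in WT 5 and highest in WT 1 or WT 2.

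The chains were found in the same cells. Of 2392 thinned Myeloid cells, 1781 had a UMI of at least 1 chain and 1100 (46.0%) had all 3, where the product of the single shares gave 22.9%. In each library the share with all 3 exceeded that product, by 1.52 times in WT 1 to 3.04 times in WT 3, which held 35 cells. Of 1197 cells with *C1qa*, 97.2% also had *C1qb*, and of 1545 cells with *C1qc*, 95.4% did.

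The windows before the start of these genes are shown because the chains were found together and because *Spi1*, whose product PU.1 binds the letters GAGGAA, was high in the same cells. *Trem2* and *P2ry12* are shown beside them for the genotype comparison. Each line is the 250 bases before the annotated start, read on the gene's strand from RefSeq (GRCm38.p6), with GAGGAA and its reverse complement TTCCTC in capitals. The windows are chr4:136886201-136886450 (minus strand) for *C1qb*, chr4:136892915-136893164 (minus strand) for *C1qc*, chr17:48346151-48346400 (plus strand) for *Trem2* and chr3:59262986-59263235 (minus strand) for *P2ry12*.
C1qb: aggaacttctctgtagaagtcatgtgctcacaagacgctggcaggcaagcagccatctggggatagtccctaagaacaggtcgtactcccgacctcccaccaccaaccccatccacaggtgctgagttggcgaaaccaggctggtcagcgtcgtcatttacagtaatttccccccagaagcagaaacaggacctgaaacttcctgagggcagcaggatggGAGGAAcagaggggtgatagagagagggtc
C1qc: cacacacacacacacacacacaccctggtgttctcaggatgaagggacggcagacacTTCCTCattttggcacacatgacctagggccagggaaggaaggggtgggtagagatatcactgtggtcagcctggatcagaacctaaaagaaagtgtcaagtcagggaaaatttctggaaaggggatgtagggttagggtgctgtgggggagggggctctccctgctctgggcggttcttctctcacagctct
Trem2: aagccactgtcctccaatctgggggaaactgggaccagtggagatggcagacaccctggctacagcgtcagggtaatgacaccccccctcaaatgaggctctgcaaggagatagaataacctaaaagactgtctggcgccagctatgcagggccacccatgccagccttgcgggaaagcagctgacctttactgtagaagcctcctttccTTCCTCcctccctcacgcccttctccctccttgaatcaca
P2ry12: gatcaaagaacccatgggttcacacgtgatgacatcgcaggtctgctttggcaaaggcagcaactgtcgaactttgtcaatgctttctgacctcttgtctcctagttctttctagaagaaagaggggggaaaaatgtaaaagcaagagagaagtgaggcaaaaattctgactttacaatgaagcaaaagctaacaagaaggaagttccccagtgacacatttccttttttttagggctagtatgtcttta
The letters were found on either strand in 5 of the 8 windows the table held for the 10 genes, those of *C1qb*, *C1qc*, *Fcgr1*, *Mrc1* and *Trem2*. Their first base lay 30 bases before the start in *C1qb*, 40 in *Trem2*, 55 in *Fcgr1* and 193 in *C1qc*, and *Mrc1* held 3 matches. Over 32851 windows of the same length 23.3% held the letters, and a match is a description of the sequence alone. The windows of *P2ry12*, *Cx3cr1* and *Timd4* did not hold them.

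*Fcgr1* encodes the high-affinity receptor for immunoglobulin G. Its Myeloid level was 112, 117, 76.4, 91.5 and 63.8 CPM in WT 1 to WT 5 and 117, 127 and 97.0 CPM in Mff_Cre 1 to 3. In aEC 2 UMIs were counted in all, and in pre-HE cells 0, against which the Myeloid level was at least 101-fold higher with 3 counts taken as the limit over all libraries.

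The receptors for engulfment were *Mrc1* (the mannose receptor), *Trem2* (a receptor for lipids and apolipoproteins) and *Timd4* (a receptor for phosphatidylserine on dying cells). *Mrc1* varied widely between libraries, from 64.8 CPM in WT 5 and 74.2 in WT 3 to 194 and 202 CPM in WT 2 and WT 1, with the 3 Mff_Cre libraries between 116 and 124 CPM. *Timd4* was sparse, at 1.3 to 6.6 CPM in WT and 4.3 to 8.7 CPM in Mff_Cre libraries, and 58 of 2392 thinned Myeloid cells had a UMI of it. Of those few cells 58 of 58 had *C1qc*, 57 had *C1qb* and 39 had *Mrc1*. *P2ry12* was found in 7 of them (12.1%), beside 318 of all 2392 thinned Myeloid cells.

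In venous endothelium *Mrc1* took a larger part of the set than in Myeloid cells, although *C1qb* had more UMIs there. It made up 24.2% of the 207 UMIs of the 10 genes in vEC_4 cells (18.5 to 30.6%) and 17.2% of 367 in vEC_3 cells, against 5.40% in Myeloid cells. The vEC_4 share was 35.5% in WT (26.6 to 45.1%) and 11.3% in Mff_Cre libraries (5.80 to 19.4%), and the vEC_3 share 22.0 and 9.72%. Such shares also move with the other genes of the set, and their intervals cover counting error only. With the venous clusters pooled, the *Mrc1* level was 0.937 ± 0.198 CPM in WT and 0.944 ± 0.129 CPM in Mff_Cre libraries (log2 fold change -0.007). Its vEC_4 level was low throughout, from 0.799 CPM in WT 3 to 3.36 CPM in WT 4. Of 38 vEC_4 cells with *Mrc1*, 2 (5.26%, 0.644 to 17.7%) had another of the 10 genes, and of 1334 without it 128 (9.60%) did. In vEC_3 the numbers were 8 of 57 (14.0%) with *Mrc1* and 256 of 2429 (10.5%) without it. Of 56 vEC_4 cells with *C1qb*, 10 (17.9%) had another of the genes, and of 26 such Megakaryocytes 22 (84.6%) did. Cells in these counts of a second gene were not thinned, and the part of depth was not tested.

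*P2ry12*, the purinergic receptor that marks microglia and also serves platelets, had the smallest ratio of the 10 between Myeloid cells and another cluster. In Megakaryocytes 22, 8, 3, 11 and 4 UMIs were counted in WT 1 to WT 5 and 6, 3 and 0 in Mff_Cre 1 to 3, or 24.0, 5.79, 13.1, 9.10 and 1.66 CPM and 5.28, 3.07 and 0 CPM. Over pooled cells the Myeloid level was 4.48 times that of Megakaryocytes, and the next smallest ratio was 5.25 for *Timd4* over pre-HE cells, where 1 UMI was counted. Of 37 Megakaryocytes with *P2ry12*, 14 (37.8%, 22.5 to 55.2%) had another of the 10 genes, beside 64 of 322 (19.9%) without it. Here too cells were not thinned, and the part of depth was not tested.

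Macrophage-type cells within the Myeloid cluster were counted as those with at least 1 UMI of at least 4 of the 10 genes after thinning to 5000 UMIs, called the macrophage profile here. This is a range cut from a count, not a cell type, and it used the 10 genes themselves. By that count 1557 of 2392 Myeloid cells (65.1%, 63.1 to 67.0%) had the profile. The number of genes per cell had no empty gap at the cut: 226 cells had 3 genes and 291 had 4. A further 142 cells had none of the genes, 414 had 6, the most frequent number, and 1 had all 10.

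**Figure D2:**
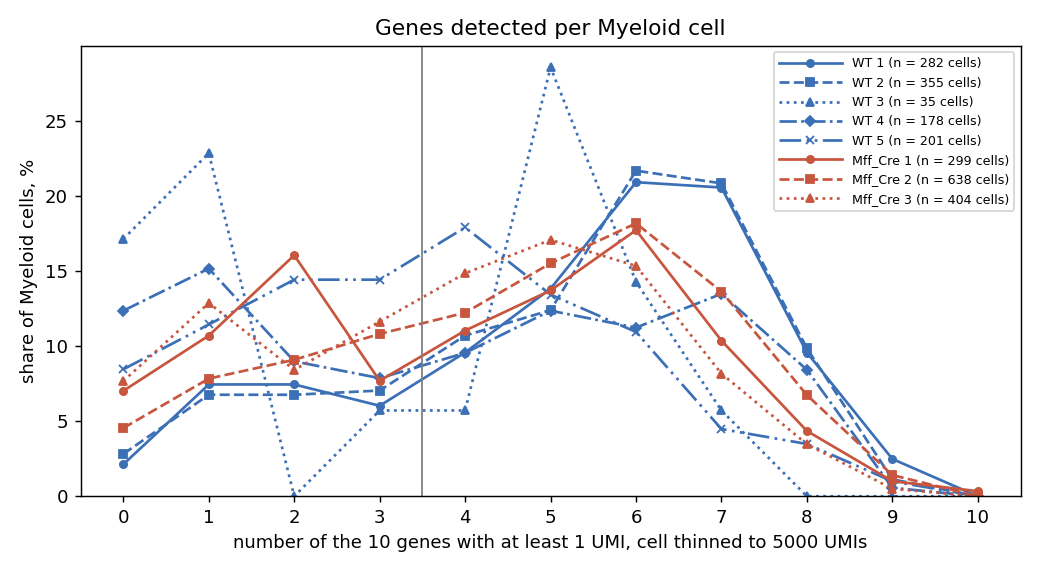
Share of Myeloid cells of each library (y axis, %) by how many of the 10 genes had at least 1 UMI after thinning to 5000 UMIs (x axis); lines are the 8 libraries and the grey line is the cut of the macrophage profile. WT 1 and WT 2 peak at 6 and 7 genes, the Mff_Cre libraries at 5 or 6, and WT 3, with 35 cells, at 5.

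The profile held 77.0, 76.6, 54.3, 55.6 and 51.2% of Myeloid cells in WT 1 to WT 5 and 58.5, 67.7 and 59.4% in Mff_Cre 1 to 3. WT libraries thus fell on both sides of all 3 Mff_Cre libraries. The means were 62.9 ± 12.7% (SD, n = 5) and 61.9 ± 5.07% (n = 3), a difference of -1.06 percentage points (p = 0.857, exact permutation test over libraries, two-sided, smallest possible p = 0.0357). The direction turned when WT 1, WT 2, Mff_Cre 1 or Mff_Cre 3 was left out, and the difference then ran from 0.177 to 2.44 percentage points. Taken over all cells of a library, profile cells made up 8.73 ± 6.80% in WT and 12.5 ± 5.06% in Mff_Cre libraries (p = 0.393, same exact permutation test).

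Outside the Myeloid cluster the profile was met by 10 of 359 Megakaryocytes (2.79%), 1 of 747 EMP cells and 1 of 1345 vEC_4 cells. Scrublet, a doublet caller, marked 26 of the 1557 profile cells and 50 of all 2392 Myeloid cells. It marked 0.547% of all cells, and without its calls the profile shares were 63.0% in WT and 62.2% in Mff_Cre libraries.

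A second list of macrophage genes, which shares none with the 10, rose alongside. The mean number of these 10 genes detected per cell was 0.718 in cells with none of the first set, 1.79 in those with 3, 2.24 in those with 4 and 3.82 in those with 9. Median UMIs per cell lay between 20706.5 and 28765 over these steps. At least 4 genes of the second list were found in 537 cells, of which 498 had the macrophage profile, or 92.7% of the smaller class and 32.0% of the larger.

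Detection of any 2 of the 10 genes in the same Myeloid cells exceeded the product of their single shares in all 8 libraries for 28 of 45 pairs, and for 35 pairs without thinning. The largest median ratios of observed to expected were 2.22 for *Mrc1* with *Timd4* (39 cells), 1.99 for *C1qa* with *Timd4* (55 cells) and 1.79 for *C1qa* with *Mrc1* (550 cells). *Cx3cr1* and *Fcgr1* had a low median of 1.07, though above 1 in all 8 libraries. The ratio cannot exceed 1 over the larger single share, so pairs with unlike shares are not ranked by it. *P2ry12* and *Mrc1* shared 100 cells at a median ratio of 1.08, above 1 in 5 of 8 libraries. *P2ry12* and *Timd4* shared 7 cells, with a median of 0.299, from 0 to 9.14 over libraries and above 1 in 3 of 8. The pair *P2ry12* and *C1qb*, in contrast, was above 1 in all 8 libraries (median 1.30). Cells of 1 library share their embryos and depth, so these ratios carry no test.

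**Figure D3:**
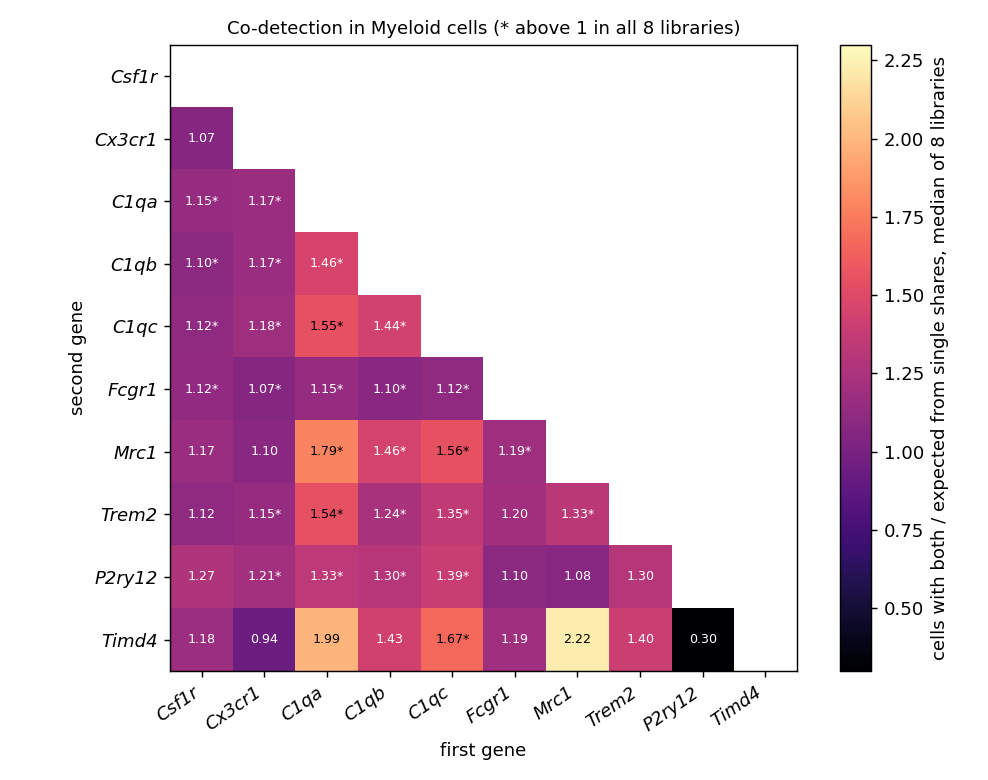
Median over 8 libraries of the share of Myeloid cells with both genes divided by the product of the single shares (colour and printed value), at 5000 UMIs per cell, for each of 45 pairs; a star marks the 28 pairs above 1 in all 8 libraries. *Mrc1*, *Timd4* and the C1q genes form the highest values, and *P2ry12* with *Timd4* the lowest, at 0.30. That last pair rests on 7 cells and ran from 0 to 9.14 over libraries.

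Within the Myeloid cluster, cells with the macrophage profile were compared with the remaining Myeloid cells of the same library. The classes were drawn from the 10 genes in the same cells, so those genes are left out of all counts, and the tests of other genes say what goes along with the class. Of 9957 other genes, 20.5% were higher and 20.5% were lower in profile cells (adjusted p under 0.1, edgeR's quasi-likelihood test with the library as a block and Benjamini-Hochberg adjustment), and the median log2 ratio was near 0. Lists of genes were read from that fit.

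Genes of engulfment and of the lysosome were higher throughout. All 7 tested engulfment and scavenging genes rose, with a median log2 ratio of 2.03, beside -0.005 over all genes. *Stab1*, a scavenger receptor, was at 153 CPM in profile and 22.1 CPM in other Myeloid cells (log2 ratio 2.77, SE 0.17, adjusted p = 2.42e-08, edgeR, higher in 8 of 8 libraries). *Colec12* rose by 3.01 and *Cd36* by 2.37 on the log2 scale, and *Mertk*, which binds bridges to dying cells, by 2.03. All 13 lysosomal genes rose, with a median of 0.85, led by the proteases *Ctsb* (730 against 173 CPM) and *Ctsl* (425 against 155 CPM) and by *Grn* (139 against 43.0 CPM).

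Ligand, signalling, complement and Fc receptor genes moved in part. Of 6 listed ligand genes 3 were tested and all 3 rose, *Apoe* (1340 against 303 CPM), *Gas6* (28.0 against 1.24 CPM) and *Pros1*. *Apoe* encodes a lipid carrier that *Trem2* can bind, while *Gas6* and *Pros1* encode ligands of *Mertk*, which is not among the 10. *Csf1*, *Il34* and *Cx3cl1*, the ligand genes of *Csf1r* and *Cx3cr1*, were not tested. Of 10 signalling partners 5 rose, 1 fell and 4 did not pass. The adaptor genes divided: *Fcer1g* rose by 0.45 on the log2 scale while *Tyrobp*, which carries the signal of *Trem2*, had a log2 ratio of 0.05 (adjusted p = 0.405, edgeR). Among 5 tested complement genes the receptors *C3ar1* (120 against 20.0 CPM) and *C5ar1* (56.1 against 7.51 CPM) rose, *Cd93* fell, and the integrin genes *Itgam* and *Itgb2* did not pass. Of 4 Fc receptor genes 3 rose, led by *Fcgrt* with 2.56 on the log2 scale, and the inhibitory *Fcgr2b* fell by 0.62.

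Other microglia genes went with the class as well, 7 of 8 tested. *Fcrls* was at 82.9 against 8.85 CPM and *Gpr34* at 32.0 against 10.8 CPM. *Olfml3* rose by 2.80 on the log2 scale. In the second list of macrophage genes 8 of 8 tested rose, among them *Lyve1* (16.1 against 1.15 CPM) and *Lgmn* (350 against 63.9 CPM). Of 9 transcription factor genes 3 fell, *Irf8*, *Tfec* and *Cebpb*, and only *Batf3* rose, while *Spi1* had a log2 ratio of -0.07 (adjusted p = 0.313, edgeR).

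Most tested granulocyte and monocyte genes were lower in profile cells. Of 5 tested granulocyte genes 4 fell in profile cells, with *Mpo* at 143 against 479 CPM and *Prtn3* at 397 against 1220 CPM. Among the monocyte genes *Ccr2*, *F10* and *Plac8* fell while *Ms4a6c* and *S100a4* rose. Of 5 progenitor genes *Cd34* fell by 0.85 on the log2 scale, *Mycn* rose by 0.74 and 3 did not pass. In profile cells the median cell held 0 UMIs of the 11 granulocyte genes in WT and 1 in Mff_Cre libraries after thinning, beside 5 and 9 in the remaining cells.

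Genes of other cell types gave no such uniform picture. The platelet gene *Pf4* was higher in profile cells, at 120 against 18.4 CPM, while *Itga2b*, also of megakaryocytes, did not pass. Of 8 endothelial genes *Pecam1* rose and *Emcn* fell, of 6 erythroid genes 3 rose, and the erythroid list summed to 19.2 to 3807 CPM in profile cells of WT libraries. Of 10 cell cycle genes *Mki67* rose, *Rrm2*, *Mcm5* and *Mcm2* fell, and 6 did not pass.

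**Figure D4:**
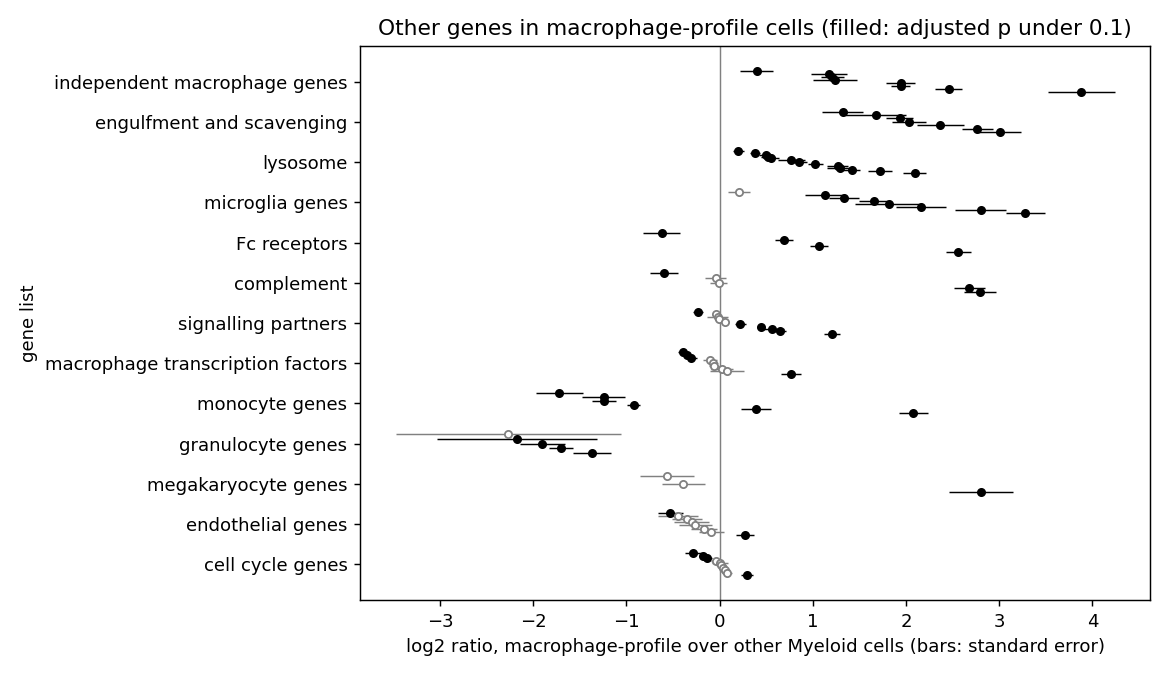
Log2 ratio of macrophage-profile over other Myeloid cells (x axis, with standard error bars) for genes of 13 lists (y axis), each point 1 gene, filled where the adjusted p is under 0.1. Engulfment, lysosome and microglia genes lie to the right of 0, granulocyte genes to the left.

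The antibody tags took no part in the classes. The CD45 tag, for the protein of *Ptprc*, was higher on profile cells in 7 of 7 libraries with tag counts, with a mean log2 ratio of 1.22 ± 0.94 (SD, adjusted p = 0.0312, exact sign flips over libraries). In WT 1 the mean was 1025 tag counts per profile cell, 580 per other Myeloid cell and 46.6 per aEC cell. A single cell of Mff_Cre 2 held 96830 counts, and without the highest cell of each class and library the ratio was 0.99. The CD27 tag was higher in 7 of 7 libraries (0.46 ± 0.28, adjusted p = 0.0312, same exact test) and the CD43 tag lower in 7 of 7 (-0.41 ± 0.26, adjusted p = 0.0312, same exact test). CD117 and CD41 did not pass, with 0.05 and -0.18, and CD44, at -0.12 in 4 libraries, could not (smallest exact p 0.125). Classes drawn from the second list of macrophage genes in place of the 10 left 6 libraries. CD45 was then higher in 5 of 6, with a mean of -0.13 that rests on Mff_Cre 2 at -1.97, CD43 was -0.66 and lower in 5 of 6, and CD41 (-1.26 to -0.11 over libraries) and CD117 (mean -0.55) were lower in 6 of 6, with adjusted p = 0.0938 for both by the same exact test.

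The comparison of genotypes asked whether loss of *Meis1* in VE-cadherin-expressing cells and their descendants went with a change in these genes. In Myeloid cells 0 of the 10 genes passed an adjusted p of 0.1 (edgeR's quasi-likelihood test), beside 3.26% of 11479 genes tested (1.78% lower and 1.48% higher in Mff_Cre libraries). At an unadjusted p under 0.05 there were 2, *P2ry12* and *Trem2*, beside 15.4% of all genes, and DESeq2 called 1, *P2ry12*, beside 5.09%. In profile cells 0 of 10 passed beside 2.52% (DESeq2: 2, *P2ry12* and *Trem2*, beside 3.78%), and in the remaining Myeloid cells 0 of 9 passed beside 3.62%, of which 1.62% lower and 2% higher (DESeq2: 1, *Fcgr1*, beside 4.13%). At an unadjusted p under 0.05 there were 2 in each of these classes, beside 13.9 and 15.9%. Both classes were cut by detection of the 10 genes, so levels of these genes within them are conditional on the cut. They add no support of their own to the comparison of all Myeloid cells.

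**Figure D5:**
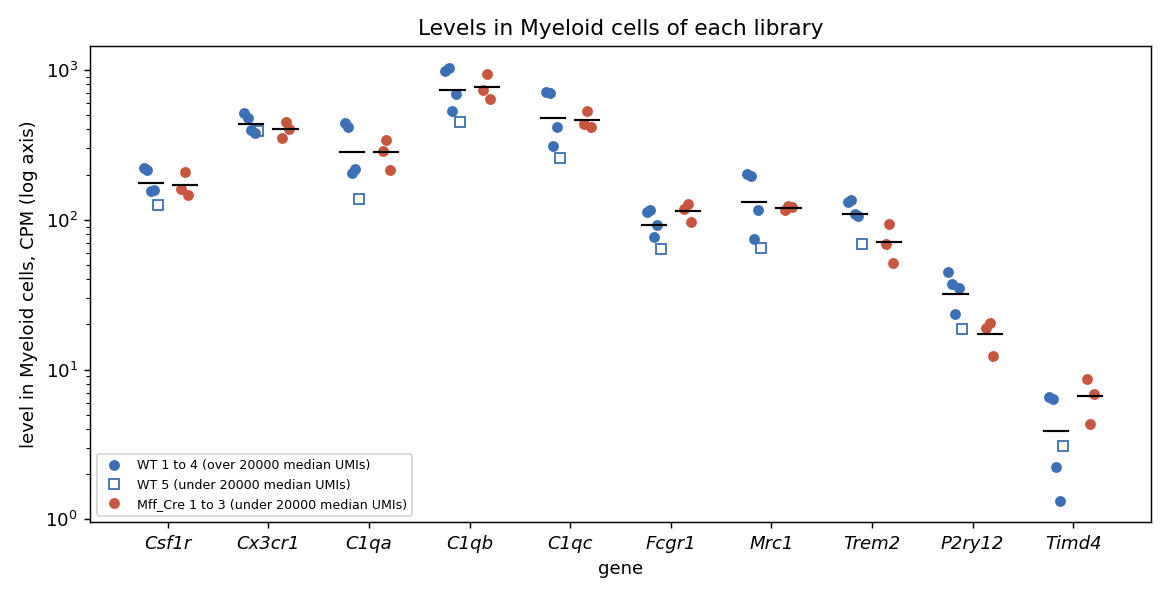
CPM in Myeloid cells (y axis, log scale) of each gene (x axis) in each library; blue is WT, with WT 5 as open squares, red is Mff_Cre, and black lines are group means. WT 5 is the lowest WT library for all genes but *Cx3cr1* and *Timd4*, and for *P2ry12* and *Trem2* it lies among the Mff_Cre libraries.

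*P2ry12* had the largest log2 fold change of the 10 genes in Myeloid and in profile cells. In Myeloid cells its level was 44.6, 37.3, 23.4, 34.9 and 18.7 CPM in WT 1 to WT 5 and 18.9, 20.3 and 12.2 CPM in Mff_Cre 1 to 3. WT 1 to WT 4 lay above all 3 Mff_Cre libraries, while WT 5 lay inside their range. The means were 31.8 ± 10.6 and 17.1 ± 4.30 CPM (log2 fold change -0.87, SE 0.25, adjusted p = 0.135, edgeR). In profile cells they were 44.1 ± 13.4 and 23.5 ± 6.55 CPM (-0.91, SE 0.24, adjusted p = 0.103, edgeR). In the remaining cells *P2ry12* was at 11.9 ± 2.19 and 6.22 ± 2.83 CPM with no overlap (-0.88, adjusted p = 0.131, edgeR). Detection of *P2ry12* took part in the cut between these classes, so its levels within them are conditional on that.

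*Trem2*, too, was lower in the mean of the Mff_Cre libraries. It was at 131, 134, 110, 106 and 68.6 CPM in Myeloid cells of WT 1 to WT 5 and at 69.1, 93.2 and 51.2 CPM in the 3 Mff_Cre libraries, and WT 5 again lay among the latter. The log2 fold change was -0.57 (SE 0.22, adjusted p = 0.253, edgeR) in Myeloid and -0.68 (SE 0.21, adjusted p = 0.156, edgeR) in profile cells.

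Whether either gene passed depended on the libraries and on the test: with WT 5 kept, *P2ry12* also passed in Myeloid cells and both genes in profile cells with DESeq2, with no filter on low counts and with thinned cells. Without WT 5, 1421 of 11586 genes passed in Myeloid cells, where the full comparison gave 374 of 11479. Among them were *P2ry12* at -1.02 (adjusted p = 0.00749, edgeR) and *Trem2* at -0.70 (adjusted p = 0.0297, edgeR). With WT 5 as the only WT library, at a depth like that of the Mff_Cre libraries, the log2 fold changes were -0.06 and 0.12. Depth class and genotype cannot be told apart for WT 1 to WT 4. The cell names of WT 5 begin unlike those of the other WT libraries, and its place among the WT rests on the library column of the annotation, which matches the pool name in the labels. Its *Meis1* level in EMP cells lay in the WT range given above, which does not reach that of the Mff_Cre libraries. In the comparison with WT 5 alone, *Mrc1*, *Fcgr1*, *C1qa*, *C1qb* and *C1qc* were among the genes higher in Mff_Cre libraries. *Mrc1* was higher by 0.97 on the log2 scale, where the full comparison gave -0.06. That fit rests on 1 WT library, whose spread is taken to be like that of the other libraries. With depth class as a covariate 0 of the 10 genes were called.

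*Fcgr1* had the smallest p in the remaining Myeloid cells, with the opposite sign. It was at 67.4, 77.1, 26.1, 44.7 and 42.2 CPM in WT 1 to WT 5 and at 94.3, 88.0 and 78.5 CPM in Mff_Cre 1 to 3, with no overlap (0.76, SE 0.23, adjusted p = 0.118, edgeR). Groups did not overlap for 2 of the 9 genes tested there, *Fcgr1* and *P2ry12*, beside 10.9% of all genes, and for 0 of the 10 in Myeloid and in profile cells, beside 10.3 and 8.85%. In profile cells *Fcgr1* was at 120 ± 19.6 and 129 ± 18.9 CPM (0.15, adjusted p = 0.712, edgeR), and whether the classes differ was not tested. Detection of *Fcgr1* and *P2ry12* took part in the cut of the classes, so these levels are conditional on it.

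For all others but *Timd4* the means of Myeloid cells differed by less than 1 SD of the WT libraries. *Csf1r* was at 175 ± 41.9 and 171 ± 31.5 CPM in Myeloid cells of WT and Mff_Cre libraries, *Cx3cr1* at 432 ± 61.3 and 400 ± 47.6, *C1qb* at 738 ± 264 and 769 ± 151, and *Mrc1* at 130 ± 65.0 and 120 ± 4.21 CPM. *Timd4* stood at 3.91 ± 2.41 and 6.63 ± 2.19 CPM (0.68, SE 0.42, adjusted p = 0.479, edgeR).

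Outside Myeloid cells the genes were sparse, and 0 were called in any cluster. Those that could be tested were 5 in EMP cells, 2 in EHT cells, 6 in Megakaryocytes and 6 in pooled venous endothelium (vEC), and none reached the count filter in aEC or pre-HE cells. All genes tested gave 4.74, 0.127, 0.206 and 0.0164% of calls there, and 0 and 0.489% in aEC and pre-HE cells. At an unadjusted p under 0.05 there were 2 in EMP cells (*C1qb* and *Cx3cr1*, beside 17.3% of all genes), 0 in EHT cells (9.49%), 1 in Megakaryocytes (*C1qa*, 8.83%) and 4 in vEC cells (16.4%).

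In vEC cells the 4 were *C1qa*, *C1qb*, *C1qc* and *Csf1r*, all with higher means in Mff_Cre libraries and all at a few CPM or less. *C1qb* was at 1.38 ± 0.96 and 4.26 ± 3.15 CPM (1.60, adjusted p = 0.229, edgeR) and *Csf1r* at 0.396 ± 0.264 and 1.37 ± 0.702 CPM (1.71, adjusted p = 0.209, edgeR). Without WT 5 these 4 genes were called in vEC cells, beside 1647 of all 12216 genes tested. In EMP cells *C1qb* and *Cx3cr1* were then called, beside 828 of 8999 genes. With WT 5 kept, 2 of 12205 genes were called in vEC and 435 of 9172 in EMP cells. The mean share of macrophage-profile cells among all cells was also higher in Mff_Cre libraries, without passing its test, and its part in these low levels was not tested.

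Other microglia genes were in part lower by genotype in profile cells. Of 8 tested, 3 were called lower and 0 higher, beside 1.39% of all genes called lower, and 8 of 8 had a negative log2 fold change, with a median of -1.14 beside -0.006 over all genes. *Siglech* was at 17.0 ± 8.44 and 4.90 ± 0.803 CPM (-1.86, SE 0.34, adjusted p = 0.0337, edgeR). *Gpr34* was at 45.5, 47.0, 38.4, 49.1 and 25.7 CPM in WT 1 to WT 5 and at 15.6, 23.2 and 13.2 CPM in Mff_Cre 1 to 3 (-1.22, SE 0.22, adjusted p = 0.0343, edgeR). WT 5 lay between the other WT and the Mff_Cre libraries. *Slc2a5*, a fructose transporter gene, was lower by the same test (-1.06, adjusted p = 0.0944). With WT 5 as the only WT library none of these 3 passed, with log2 fold changes of -0.98, -0.49 and -0.16, nor did any with depth class as a covariate.

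Genes of granulocytes moved the other way in the same cells. Of 5 tested granulocyte genes 4 were higher in Mff_Cre profile cells, beside 1.13% of all genes: *S100a9* (1.11 against 242 CPM), *S100a8* (9.61 against 346 CPM), *Mpo* (72.0 against 258 CPM) and *Prtn3*. The 11 genes of the list summed to 223 to 631 CPM in WT and 1161 to 1650 CPM in Mff_Cre profile cells, with *Ngp*, *Ctsg*, *Retnlg* and *Lcn2* at 0 in WT and *Ngp* and *Retnlg* at 0 in Mff_Cre libraries. They were higher in the remaining Myeloid cells of both genotypes, at 1315 to 2638 and 1829 to 4021 CPM. A UMI of the list was found in 49.4% of WT and 66.2% of Mff_Cre profile cells after thinning. Erythroid genes had a UMI in 20.1% of WT and 50.4% of Mff_Cre profile cells, and in 23.2 and 48.2% of the remaining cells, with cells pooled. Their summed level in profile cells had a median of 43.7 and 190 CPM over libraries, but a highest value of 3807 CPM in WT and 673 CPM in Mff_Cre. In the fit of profile cells 5 of 6 tested erythroid genes had a negative log2 fold change (median -1.11), and 0 were called. In the remaining cells 2 of 6 were called higher (median 1.22), beside 2% of all genes. The part of either list in the other differences was not tested.

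Outside the 10 genes, those whose level followed their sum most closely over 79 sums of cells by library and cluster were *Ms4a6b* (Pearson r of log2 CPM with 1 added, 0.939), *Ifi30* (0.935), *Ms4a6c* (0.924), *C3ar1* (0.923), *Aif1* (0.917), *Ctss* (0.913), *C5ar1* (0.912) and *Ly86* (0.909), among 7234 genes. The sums share libraries and clusters, so the values are descriptions. The 8 genes that set profile cells apart from the remaining Myeloid cells most evenly over libraries were *Slc40a1*, *Ms4a6b*, *Dab2*, *C5ar1*, *Fcrls*, *Fcgrt*, *C3ar1* and *Lgmn*. *Dab2*, an adaptor for endocytosis, was higher by 3.11 on the log2 scale and *Slc40a1*, the iron exporter of macrophages, stood at 51.1 against 3.33 CPM. On the other side stood *Hp*, *Prtn3*, *Cytip*, *Tuba4a*, *Serpinb1a*, *Mpo*, *Stfa1* and *Glipr1*, with *Hp* at 61.8 against 225 CPM.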

How the data were processed

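RNA and surface proteins were measured together (CITE-seq) with the 10x 3' v3 kit in 8 libraries, each a pool of embryos. Per the labels and the study's methods, the authors made UMI counts with Cell Ranger 3.0.2 (build mm10, from the submitters' processing notes; the annotation release is not given in the sources used here), kept cells by gene number and mitochondrial share, and integrated and clustered the RNA. The deposited table holds raw UMI counts of 28014 genes and 6 antibody tags, with 0 values not whole, at least 2001 genes per cell and mitochondrial shares of at most 9.98%. A second deposited table gives each cell's library, genotype and cluster. Tag counts of WT 4 summed to 0, and CD44 was missing in WT 1 to WT 4.

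Counts were summed per library and cluster or class (at least 10 cells) and compared by edgeR 4.0.16 under R 4.3.3 (scaled by TMM, filterByExpr, quasi-likelihood F test, Benjamini-Hochberg over all genes tested, threshold 0.1 as in the study). The SE is the size of the log2 fold change over the root of F. In a check on simulated data, 200 genes were given a log2 change of 1.5. The test found 90.5% of them for genotype in 11479 genes of Myeloid cells and 90.5% in 10859 genes of profile cells, and 100% for profile against other Myeloid cells in 9966 genes. False calls made up 8.59, 8.12 and 8.68% of calls. Shares were compared by exact permutation of libraries and tags by exact sign flips, both two-sided, with a threshold of 0.05; the 6 tags were adjusted together, as log2 ratios of the mean tag count. Cells were thinned with a fixed seed. Whether the labels' replicates came from separate litters is not said, so p-values measure the spread between pools.

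Named genes are the 10, up to 3 risers and 3 fallers of each list, the 8 most alike, the 8 highest and 8 lowest between classes (at least 50 CPM), and 5 risers and 5 fallers by genotype. Further list members are named where a list is described. The 10 genes and all lists were chosen with earlier results of these data known. Alternatives were RLE normalization, DESeq2 1.42.0, no filter on low counts, stricter thresholds, thinned cells, no doublets, depth as covariate, other class cuts, WT 5 as the only WT library, the replicate number as a block, and each library left out. Leaving out the highest cell for each tag was added after the data had been seen. Promoter windows were those of RefSeq; none was used for *C1qa* or *Csf1r*. Some list members are not reported here.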

Additional observations from a re-analysis of the deposited data

Results flagged for a closer look

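In 37 groups of 4 to 7 libraries, a value was looked at again where its gap to the nearest other value was large beside the range of the group (Dixon's critical value at 95%). Chance flags about 1 in 20 such groups, and 2 were found, both in WT 5. *Trem2* in macrophage-profile cells was at 103 CPM in WT 5 and between 163 and 177 CPM in the other 4 WT libraries. *Timd4* in the remaining Myeloid cells was at 1.67 CPM in WT 5 and between 0 and 0.25 CPM in the other WT libraries. WT 5 is the only WT library below a median of 20000 UMIs per cell, and the part of depth in either value was not tested.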

How the results depend on the processing

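The share of Myeloid cells with a macrophage profile differed by -1.06 percentage points between genotypes. It turned to 0.770 with at least 3 genes, to 3.79 with all cells as denominator and to 10.6 with WT 5 as the only WT library (p = 0.5, the smallest exact p for 1 against 3), and lay between -3.99 and 2.44 with any 1 library left out, with no p under 0.571. With any 1 library left out CD43, CD45 and CD27 kept their direction and had an adjusted p of 0.0625 (exact sign flips of 6 libraries): CD43 ranged from -0.470 to -0.345, CD45 from 0.899 to 1.36 and CD27 from 0.388 to 0.516. CD27 missed at 0.430 with medians and CD41 passed at -0.493 as a centred log ratio. With at least 3 genes CD117 passed at 0.333, CD43 missed at -0.274 and CD44 turned to 0.0161; with at least 5, CD117 turned to -0.155 and CD27 missed at 0.303. With the second list of macrophage genes CD41 lay between -1.26 and -0.109 over 6 libraries, CD117 was -0.547, CD43 -0.663, CD45 -0.129 and CD27 0.0646, and without the highest cells as well the last 4 were -0.661, -0.741, 0.157 and 0.0265. The cause was not tested.

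Of the 10 genes, 0 were called by genotype in Myeloid, profile and remaining Myeloid cells. DESeq2 called 1, 2 and 1, no filter on low counts 1, 2 and 1, and thinned cells 1 in Myeloid and 2 in profile cells. Of all genes tested, DESeq2 called 5.09, 3.78 and 4.13%, and no filter gave 442 of 18418, 406 of 17714 and 584 of 16935. Thinned cells gave 235 of 8518 in Myeloid and 237 of 7672 in profile cells. With WT 5 as the only WT library *Mrc1* turned to 0.97 in Myeloid cells, and calls of that fit, which rest on 1 WT library, are not counted here. At least 5 genes gave 1 in profile cells (259 of 10406 of all genes) and 1 in remaining cells (485 of 10493). At least 3 genes gave 2 in remaining cells (421 of 9424). The second list gave 2 and 1 (591 of 9189 and 431 of 11161). Leaving out each library gave 0 to 2 in each of the 3: 2 without WT 5 in each, and in the remaining cells 1 without WT 2 and 1 without Mff_Cre 2. Of all genes tested without WT 5, 1421 of 11586, 1305 of 11011 and 890 of 9841 were called in the 3. In the other clusters no filter gave 4, with 1 in EMP cells (537 of 16577 of all genes), 2 in Megakaryocytes (273 of 15736) and 1 in aEC (219 of 16577). Leaving out each library gave 0 to 6 there, the 6 without WT 5. Other genes called between classes numbered 4088, 1964 without the library as block and 1534 with thinned cells, where 5668 genes were tested. Leaving out each library gave 3345 to 4295.

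Deviations of same-numbered libraries of the genotypes had correlations of -0.19, 0.14 and 0.04 in Myeloid cells. In the remaining Myeloid cells they were -0.07, 0.11 and 0.11. The deviations are from means of 3 libraries per genotype, so they cannot decide whether such libraries share more than a number. With the replicate block on libraries 1 to 3, 2 of the 10 genes were called in each of the 3 classes, as well as 2 in EMP and 5 in vEC cells. Of all genes, that fit called 1338 of 11835 in Myeloid, 1008 of 11233 in profile and 1232 of 9978 in remaining Myeloid cells. In EMP cells it called 1001 of 9124. The same libraries without the block gave 2, 2 and 1 of the 10 genes in the 3 classes, beside 1335 of 11501, 973 of 10898 and 880 of 9662 of all genes. The profile share differed by -7.40 points with the block (p = 0.5, exact sign flips). Genes at a few counts, *Timd4* above all, are limited by depth.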

Other observations

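By a fixed rule, the genes that rose most with genotype in macrophage-profile cells were *S100a9*, *S100a8*, *BC100530*, *Stfa1* and *Mpo*, and those that fell most were *Rgs1*, *Ccl4*, *Hist1h4d*, *Hspa1a* and *Tpm2*. *Rgs1*, a regulator of G-protein signalling, was at 55.2 ± 24.8 CPM (here after TMM scaling) in WT and 5.75 ± 1.56 CPM in Mff_Cre libraries (log2 fold change -3.23, SE 0.43, adjusted p = 0.0115, edgeR). The chemokine gene *Ccl4* was at 78.9 ± 41.9 and 12.6 ± 0.99 CPM, and *Tpm2*, a tropomyosin gene, at 147 ± 32.4 and 48.9 ± 20.2 CPM. *Stfa1*, a stefin gene of myeloid cells, rose from 98.2 ± 60.7 to 533 ± 116 CPM. Depth and genotype coincide in these group means except in WT 5. With depth class as a covariate 2 of 11671 genes were called in profile cells, and with median UMIs per cell as a covariate 8 of 11125. Of the 13 listed genes called by genotype in these cells, 4 were also called with WT 5 as the only WT library and 0 with depth class as a covariate.

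*Tfec*, a transcription factor gene related to lysosome control, had means of 36.0 ± 7.19 CPM in WT profile cells and 56.4 ± 3.94 CPM in Mff_Cre profile cells (0.66, adjusted p = 0.0465, edgeR). *Cpa3*, a mast cell protease gene, was at 1.10 ± 1.06 and 16.6 ± 5.70 CPM, with the mast cell genes *Cma1*, *Mcpt4* and *Tpsb2* at 0 in both genotypes. *Flt3* was at 2.65 ± 1.57 and 0.134 ± 0.134 CPM (adjusted p = 0.0372, edgeR).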
